A study of Mus musculus with 8 samples.

Results

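Glypicans and syndecans are the main families of proteoglycans that hold heparan sulfate at the cell surface. The 10 genes described here, the glypican genes Gpc1 to Gpc6 and the syndecan genes Sdc1 to Sdc4, were taken by symbol from the 18194 genes measured on 8 Affymetrix arrays of the mouse mandibular arch, the embryonic tissue that forms the lower jaw. All 10 were measured, by 24 probe sets annotated to a single one of these symbols, and the probe set with the highest mean over the 8 arrays stands for the gene. RNA came from C57BL/6J embryos at embryonic day 11.5, with 4 Alk5 fl/fl controls and 4 Alk5 fl/fl; Wnt1-Cre mutants. Both groups carry the floxed Alk5 alleles, and only the mutant labels name the Wnt1-Cre driver, which acts in the neural crest lineage, so the arch keeps cells with an intact receptor, and the driver and the deletion cannot be told apart. The Alk5 protein, encoded by Tgfbr1, is the type I TGF-beta receptor. The labels do not say whether the arrays of a group came from separate embryos or litters, so p-values measure only how much these samples vary, which may be technical.

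A glypican is tied to the outer face of the membrane by a lipid anchor, whereas a syndecan spans the membrane and has a short cytoplasmic tail that binds scaffold and cytoskeletal proteins. Their heparan sulfate chains bind growth factors and morphogens, among them FGF, WNT, Hedgehog and BMP proteins, and so set how far these ligands spread and how well they reach their receptors. The pattern of sulfate groups along the chain, laid down by enzymes of the Golgi and trimmed outside the cell, affects which ligands bind.

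Values are log2 expression levels per probe set as deposited, and a change is the mean of the mutants minus the mean of the controls on that scale. The medians of the arrays ranged from 6.28 to 6.42. Values of mutant replicate 3 were less spread out than those of the rest (SD over probe sets 2.42, elsewhere 2.52 to 2.56). Its correlation with other arrays went down to 0.986, while without it no pair was below 0.993. It gave the lowest mutant value at 14 of the 24 probe sets of the 10 genes. The share over all probe sets was not computed, so this count is not read as a trait of these genes. The targeted gene Tgfbr1 went from a control mean of 12.79 ± 0.0844 to a mutant mean of 12.98 ± 0.0115 (SD over 4 arrays; limma adjusted p = 0.232). This change of 0.19 was 0.33 over the mean of its probe sets and 0.51 at the one of largest variance (adjusted p = 0.251 and 0.274), and it passed with a variance trend (adjusted p = 0.0282). Its probe sets read the 3′ part of the transcript, whose place relative to the deleted part is not known here, so it does not check the deletion. Among markers of other cells, 8 of 10 macrophage genes rose and 0 fell (all genes: 0.835% rose, 1.31% fell). Their summed linear level was 3680 to 4920 in mutants against 1840 to 2040 in controls. Markers of arch mesenchyme gave 0 of 12 past the threshold, but their summed level was 29700 to 33100 in mutants and 35400 to 39800 in controls. Such a linear sum weighs the brightest markers most. Of the 12 changes, 9 were below 0 and 3 above, with a median of -0.18. Of all genes, 2.14% passed and 52% were below 0, with a median of -0.01. The dimmest macrophage and mesenchyme markers, Cd68 and Alx4, averaged 6.15 and 6.06, below the median of 7.63 over all genes. Detection calls were not used, so whether such dim markers were present is not known. The part of these shifts in the values below was not tested, and in a whole tissue fewer cells of a type and less RNA per cell cannot be told apart.

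The sequences upstream of the gene starts are shown for 4 members that recur below: Gpc3 and Sdc1, whose control and mutant arrays did not overlap, Gpc4, which had the smallest p, and Sdc3, which among the members' windows holds the most copies of the box bound by Smad proteins, the mediators of TGF-beta signalling. The 250 bases before the start are from RefSeq (GRCm38.p6), given 5′ to 3′ on the gene's own strand, at chrX:52613975-52614224 (minus strand), chrX:52164924-52165173 (minus strand), chr12:8771146-8771395 (plus strand) and chr4:130792287-130792536 (plus strand). Capitals mark CAGAC, the Smad box, and GGGCGG, the GC box that Sp1-type factors bind, each on either strand.
Gpc3: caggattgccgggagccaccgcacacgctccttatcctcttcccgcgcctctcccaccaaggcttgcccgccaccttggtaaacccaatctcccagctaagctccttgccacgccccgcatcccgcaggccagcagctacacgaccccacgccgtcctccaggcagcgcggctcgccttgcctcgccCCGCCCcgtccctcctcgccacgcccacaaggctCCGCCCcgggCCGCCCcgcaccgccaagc
Gpc4: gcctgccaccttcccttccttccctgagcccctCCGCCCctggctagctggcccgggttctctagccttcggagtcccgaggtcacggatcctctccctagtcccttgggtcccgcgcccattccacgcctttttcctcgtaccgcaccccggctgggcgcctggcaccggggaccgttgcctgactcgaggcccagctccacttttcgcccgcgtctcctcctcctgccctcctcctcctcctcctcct
Sdc1: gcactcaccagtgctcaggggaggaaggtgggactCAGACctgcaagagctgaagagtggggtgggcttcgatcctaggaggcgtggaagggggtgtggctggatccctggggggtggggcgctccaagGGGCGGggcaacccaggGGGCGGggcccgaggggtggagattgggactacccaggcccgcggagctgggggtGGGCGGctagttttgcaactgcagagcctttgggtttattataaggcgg
Sdc3: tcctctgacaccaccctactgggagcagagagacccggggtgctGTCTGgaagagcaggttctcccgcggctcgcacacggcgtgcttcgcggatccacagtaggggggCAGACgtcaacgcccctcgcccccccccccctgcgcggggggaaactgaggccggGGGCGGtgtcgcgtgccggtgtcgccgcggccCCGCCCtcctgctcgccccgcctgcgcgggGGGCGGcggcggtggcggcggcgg

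RefSeq windows were at hand for 7 of the 10 genes, all but Gpc1, Gpc6 and Sdc2. GC boxes stood in 7 of the 7, with 3 copies each upstream of Gpc2, Gpc3, Sdc1 and Sdc3, 4 of Sdc4 and 1 each of Gpc4 and Gpc5, while 32.7% of all 32851 windows of that length hold at least 1. Smad boxes stood in 2 of the 7, with 1 copy upstream of Sdc1 and 2 of Sdc3, and 42.2% of all windows hold at least 1. Both motifs are short and can fall in a window by chance, and the letters say nothing about binding in these embryos. The 7 windows were rich in CpG, from 10 dinucleotides for Sdc1 to 32 for Sdc3, where the median window holds 6.

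None of the 10 genes differed between mutants and controls at an adjusted p under 0.05. The count was 0 of 10 by limma, adjusted over all 18194 genes, of which 2.14% passed (0.835% higher and 1.31% lower in mutants). At an unadjusted p under 0.05 the members gave 2 of 10, Gpc4 and Gpc5, against 13.5% of all genes, and the control and mutant arrays did not overlap for 2 of 10, Gpc3 and Sdc1, against 10.3% of all genes. The change was below 0 for 8 of the 10, all 4 syndecans and 4 of the 6 glypicans, where 52% of all genes were below 0. The median change of the members was -0.13 and ran from -0.30 to 0.19, beside a median of -0.01 over all genes and of -0.05 over genes above the median level, where 9 of the members lie. Put as folds, the 95% intervals of the 10 genes together ran from 0.662, the lower bound of Sdc4, to 1.29, the upper bound of Gpc5, so these arrays leave room for differences of that size.

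**Figure D1:**
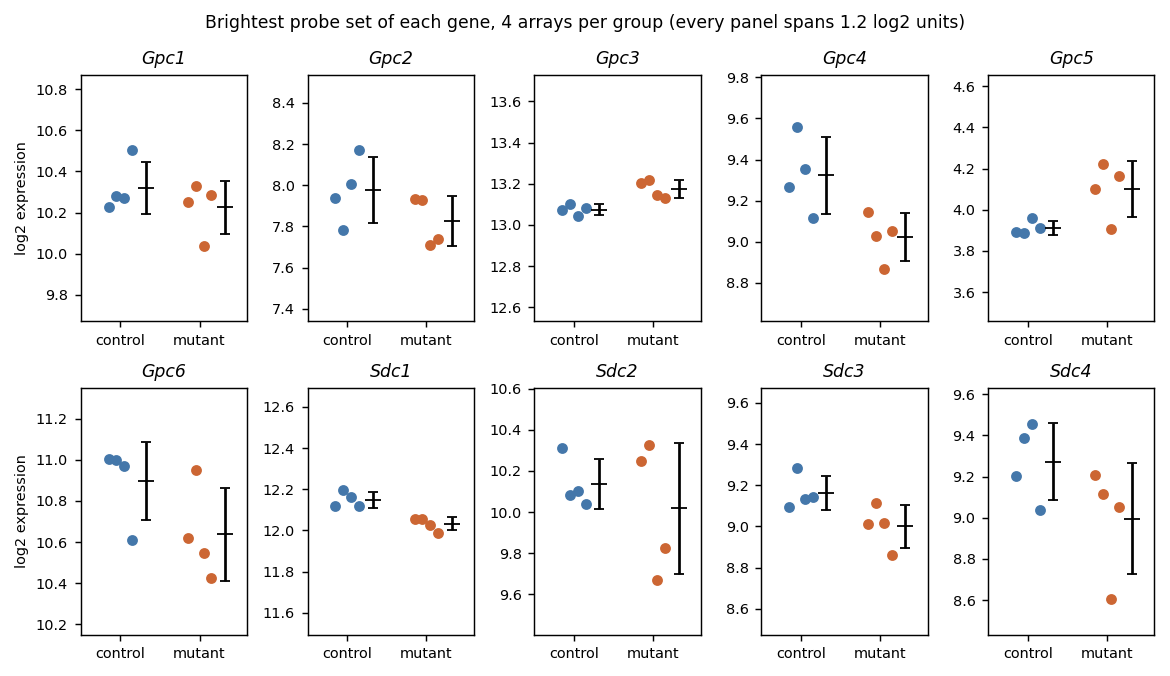
Log2 expression of the brightest probe set of each of the 10 genes on the 4 control and 4 mutant arrays, 1 point per array in replicate order, with the group mean and SD beside the points; every panel spans the same log2 range at a different level. The groups separate for Gpc3, with mutants at 13.13 to 13.22 and controls at 13.04 to 13.10, and for Sdc1, with mutants at 11.99 to 12.06 and controls at 12.12 to 12.20, and overlap in the other 8 panels.

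Gpc4, which in fish embryos is needed for cell movements under non-canonical WNT signalling, showed the largest change of the members. Its brightest probe set read 9.27, 9.56, 9.35 and 9.11 in controls and 9.14, 9.03, 8.87 and 9.05 in mutants. Control replicate 4 was the lowest control and lay below mutant replicate 1, so the groups overlapped by that pair alone. The change was -0.30 ± 0.104 (SE), or 0.812-fold (95% interval 0.690 to 0.955). The adjusted p by limma was 0.227 and the two-sided exact permutation gave p = 0.0571. The other Gpc4 probe set (1436514_at) read 8.30, 8.56, 8.38 and 8.19 in controls and 8.01, 7.98, 7.94 and 8.15 in mutants. There the groups did not overlap, and the change was -0.34 ± 0.0932 (SE; limma adjusted p = 0.185 over all probe sets; exact permutation p = 0.0286, the lowest possible with 70 relabelings). Gpc4 thus read lower at both of its probe sets by a similar amount, without passing over all genes or all probe sets.

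Gpc3, loss of which causes an overgrowth syndrome in humans and which is known to hold back Hedgehog signalling, lies beside Gpc4 on the X chromosome with 0 protein-coding genes between them. It read 13.07, 13.10, 13.04 and 13.08 in controls and 13.21, 13.22, 13.15 and 13.13 in mutants, a level that 98.6% of probe sets do not exceed. Every mutant was above every control, but the distance was small: the change was 0.10 ± 0.0616 (SE), or 1.07-fold (95% interval 0.974 to 1.18; limma adjusted p = 0.544; exact permutation p = 0.0286). The neighbours Gpc3 and Gpc4 therefore had changes of opposite sign, and the difference between them was not tested. Both genes are X-linked and the labels give no sex, so the level of Xist, the RNA made from the inactive X, was taken as a guide: it read 11.92, 6.62, 11.94 and 11.67 in controls and 6.21, 6.21, 11.81 and 11.52 in mutants, which places high and low arrays in both groups. With Xist as a covariate the change of Gpc3 was 0.08 (adjusted p = 0.509) and that of Gpc4 was -0.36 (adjusted p = 0.0826).

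Gpc6, loss of which shortens the limbs in humans and whose product promotes Hedgehog signalling, lies beside Gpc5 on chromosome 14, again with 0 protein-coding genes between. Its brightest probe set read 11.01, 11.00, 10.97 and 10.61 in controls and 10.62, 10.95, 10.55 and 10.43 in mutants. Control replicate 4 sat with the mutants and mutant replicate 2 with the other controls. The change was -0.26 ± 0.13 (SE; 95% interval -0.55 to 0.03; limma adjusted p = 0.439), and it was -0.35 without control replicate 4 (adjusted p = 0.234). Over all fits without a single array, the change ran from -0.36 to -0.19. The other 4 probe sets of Gpc6 also read lower, by changes of -0.07 to -0.42, with adjusted p-values over all probe sets of 0.535 to 0.904.

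Gpc5, best known from the nervous system and from muscle tumours in which it is amplified, was dim. It read 3.89, 3.89, 3.96 and 3.91 in controls and 4.10, 4.22, 3.91 and 4.16 in mutants, a level that 10.7% of probe sets do not exceed. Mutant replicate 3 read like the controls and the other mutants read higher. The change was 0.19 ± 0.0804 (SE; 95% interval 0.01 to 0.37; limma adjusted p = 0.353; exact permutation p = 0.0857). Without mutant replicate 3 the change was 0.25 with an adjusted p of 0.0444, and with array weights it was 0.23 with an adjusted p of 0.0309, the 2 settings of 17 in which Gpc5 passed. Detection calls were not used here, so whether the transcript was present at this level is not known, and a filter on dim genes removes it.

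Gpc1, a co-receptor for FGF proteins, and Gpc2, a glypican of growing neurons, have 1 probe set each. Gpc1 ranged from 10.23 to 10.50 in controls and from 10.04 to 10.33 in mutants, a change of -0.10 ± 0.0918 (SE; 95% interval -0.30 to 0.11; limma adjusted p = 0.72). Gpc2 ranged from 7.78 to 8.17 in controls and from 7.71 to 7.93 in mutants, a change of -0.15 ± 0.0984 (SE; 95% interval -0.37 to 0.07; limma adjusted p = 0.583). In both genes the control and mutant ranges overlapped. As a measure beside Gpc2, 1 of 8 measured genes of neurons and glia rose and 2 fell, with 6 below 0 and a median of -0.18 (all genes: 0.835% rose, 1.31% fell, 52% below 0, median -0.01). Their summed level was 3560 to 4020 in mutants and 2470 to 3040 in controls, but without Gap43, the marker that rose (1.34), it was 1150 to 1300 in mutants and 1420 to 2020 in controls. Gap43 was singled out with its values known, and the part of these markers in the values of Gpc2 was not tested.

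Among the syndecans, Sdc1, a proteoglycan of epithelia and of mesenchyme that condenses under them, was the member whose groups did not overlap. It read 12.12, 12.20, 12.16 and 12.12 in controls and 12.05, 12.06, 12.03 and 11.99 in mutants. The change was -0.12 ± 0.0616 (SE), or 0.923-fold (95% interval 0.838 to 1.02; limma adjusted p = 0.471; exact permutation p = 0.0286). The probe set has the suffix x, which marks probes that may bind other transcripts. The other 3 probe sets of Sdc1 read lower too, by changes of -0.12 to -0.22, but their groups overlapped (adjusted p = 0.547 to 0.804 over all probe sets). In the same arrays 0 of 12 epithelial markers passed the threshold and their median change was -0.20 (all genes: 2.14% passed, median -0.01). Their summed level ran from 6390 to 10900 in mutants and from 9310 to 11600 in controls, with the lowest value on mutant replicate 3. Their dimmest member, Grhl3, averaged 7.47, near the median of 7.63 over all genes.

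Sdc4, a syndecan of focal adhesions that takes part in neural crest migration, read 9.21, 9.39, 9.45 and 9.04 in controls and 9.21, 9.12, 8.60 and 9.05 in mutants. Mutant replicate 3 was far below the others, and the other 3 mutants lay within the range of the controls. The change was -0.28 ± 0.142 (SE; 95% interval -0.59 to 0.04; limma adjusted p = 0.455), and without mutant replicate 3 it was -0.15 (adjusted p = 0.535). The other Sdc4 probe set gave -0.06 ± 0.164 (SE; adjusted p = 0.936 over all probe sets). The change of Sdc4 was thus smaller without that array and at the other probe set.

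Sdc2, a syndecan of mesenchymal cells, read 10.31, 10.09, 10.10 and 10.04 in controls and 10.25, 10.33, 9.67 and 9.83 in mutants. The mutants split around the controls, with replicates 1 and 2 at the level of the highest control and replicates 3 and 4 below all controls. The change was -0.12 ± 0.147 (SE; 95% interval -0.45 to 0.21; limma adjusted p = 0.784), and it was -0.0025 without mutant replicate 3, -0.05 without mutant replicate 4 and -0.06 without control replicate 1. It was -0.19 and -0.22 without mutant replicates 1 and 2, so its size moved with single arrays. Of its other 3 probe sets, 1417012_at had the largest change, -0.30 ± 0.104 (SE; adjusted p = 0.338 over all probe sets), and 1431474_at lay at the same percentile of all probe sets as Gpc5, 10.7%.

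Sdc3, the syndecan of neural tissue and early cartilage, ranged from 9.09 to 9.28 in controls and from 8.86 to 9.11 in mutants, a change of -0.16 ± 0.0785 (SE; 95% interval -0.34 to 0.01; limma adjusted p = 0.416). Its other probe sets went the other way, by 0.08 ± 0.135 and 0.05 ± 0.0813 (SE; adjusted p = 0.893 and 0.892 over all probe sets). Among the members with more than 1 probe set, Sdc3 was the 1 gene whose probe sets differed in sign. Gpc1, Gpc2, Gpc3 and Gpc5 have a single probe set each and could not differ. Over the 24 probe sets the change was below 0 at 20, beside 46.9% of all probe sets. Probe sets of the same gene read the same arrays and are not independent. None of the 24 passed an adjusted p of 0.05 over all 45101 probe sets, of which 0.845% passed.

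**Figure D2:**
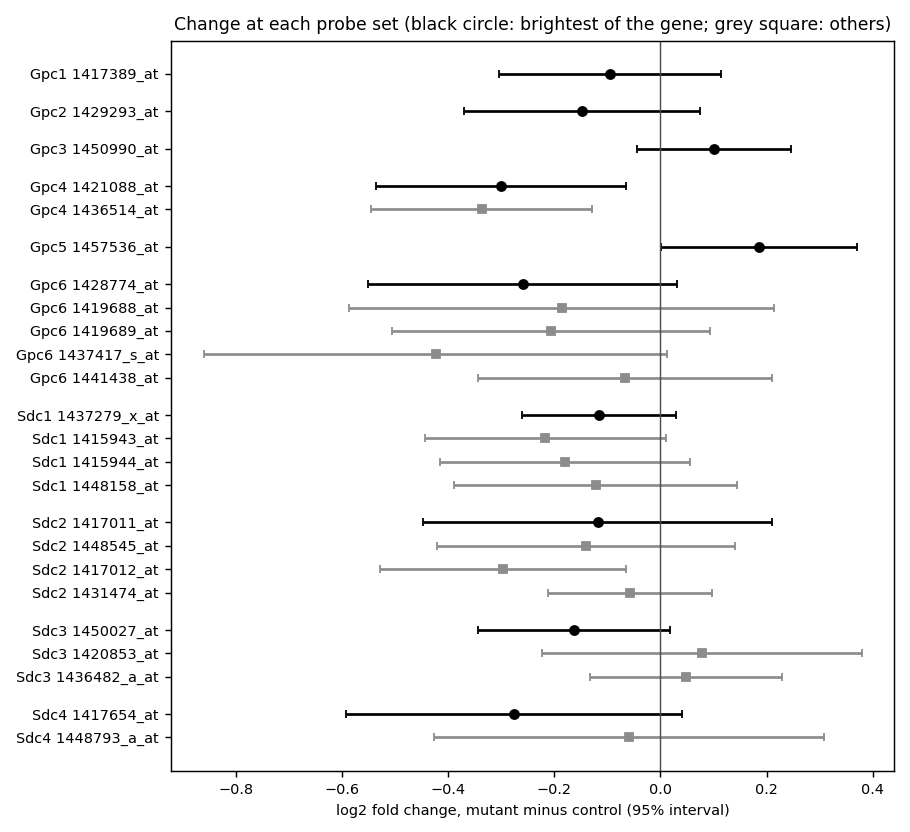
Change at each of the 24 probe sets as log2 fold change, mutant minus control, with its 95% interval from limma over all probe sets; black circles are the brightest probe set of a gene and grey squares its others. The intervals of both Gpc4 probe sets, of Gpc5 and of Sdc2 1417012_at leave out 0 before any adjustment. Those of the other 20 include it. Such an interval goes with an unadjusted limma p under 0.05, which 13.5% of all genes had at their brightest probe set.

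Over the 8 arrays, the genes whose levels followed Gpc4 most closely among 9096 genes at least as bright as the median gene were Rnf26 (r = 0.985, rho = 0.976), the long noncoding RNA Tug1 (r = 0.985, rho = 0.976) and Rtn1, a reticulon gene (r = 0.984, rho = 1). Without control replicate 2 and mutant replicate 3, the arrays farthest from the median of Gpc4, r was 0.947, 0.948 and 0.987. Within the groups, after the group means were taken out, r was 0.968, 0.971 and 0.965. With so many genes and 8 arrays a high r is easily found, and the values are given as a description. Like Gpc4, the 3 genes had changes below 0 that did not pass (-0.16, -0.19 and -0.45; limma adjusted p = 0.401, 0.371 and 0.174).

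The chains that these core proteins carry are built by other genes, and there some changes passed. Of 31 measured genes of heparan sulfate synthesis and modification, 3 fell, 0 rose and 28 did not pass, with 22 below 0 and a median of -0.14 (all genes: 1.31% fell, 52% below 0, median -0.01). Hpse2, a relative of heparanase that binds heparan sulfate without cutting it, read 5.88, 6.17, 6.22 and 5.72 in controls and 5.42, 5.36, 5.01 and 5.21 in mutants. The groups did not overlap and the change was -0.75 ± 0.132 (SE; limma adjusted p = 0.0242). Hs3st6, which adds the rare sulfate at the 3-O position, read 7.06, 7.30, 7.35 and 7.07 in controls and 6.45, 6.55, 6.86 and 6.69 in mutants, again without overlap, a change of -0.56 ± 0.11 (SE; adjusted p = 0.0365). Papss1, which makes the sulfate donor that all sulfotransferases use, read 12.05, 12.20, 12.17 and 11.95 in controls and 11.73, 11.79, 11.53 and 11.68 in mutants. Its groups were also separate, with a change of -0.41 ± 0.0866 (SE; adjusted p = 0.0449). Each of the 3 has a single probe set. Hpse2 was dim, at a level that 38.5% of probe sets do not exceed. The means of Hs3st6, 7.19 in controls and 6.64 in mutants, were also below the median of 7.63 over all genes. A filter on dim genes removes both Hpse2 and Hs3st6. Hpse2 lost the call without control replicate 1, 2 or 3 or mutant replicate 4 (adjusted p up to 0.0995), Hs3st6 without control replicate 1, 2 or 3 or mutant replicate 1, 2 or 4 (up to 0.139), and Papss1 without control replicate 1, 2 or 3 or mutant replicate 1, 2 or 4 (up to 0.174). Over all alternatives Hpse2 passed in 12 of 17, Hs3st6 in 9 of 17 and Papss1 in 8 of 18. All kept their direction, but several alternatives leave the change itself as it is and could not turn it.

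Other genes of the chain are given by their role, and were picked out with their values known. Ext1 and Ext2, whose products together polymerize the chain, had changes of -0.16 ± 0.113 and -0.02 ± 0.0829 (SE; adjusted p = 0.6 and 0.95). For Ext1, 1 of its 2 probe sets had this sign, and the change was -0.02 over their mean and -0.07 without mutant replicate 3. For Ext2, 1 of its 3 probe sets had this sign, and over their mean the change was 0.05. Glce, the epimerase that turns glucuronic into iduronic acid, had a change of -0.31 ± 0.104 (adjusted p = 0.205), though 2 of its 3 probe sets went the other way. Hs2st1, Hs6st1 and Hs6st2, the sulfotransferases for the 2-O and 6-O positions, had changes of -0.23 ± 0.0845, -0.25 ± 0.118 and -0.34 ± 0.111 (adjusted p = 0.258, 0.409 and 0.201). Hs2st1 and Hs6st2 each had this sign at 3 of 4 probe sets, and over the mean of these their changes were -0.07 and -0.21. Sulf1, which removes 6-O-sulfate outside the cell, had a control mean of 10.70 ± 0.136 and a mutant mean of 10.16 ± 0.279 (SD over 4 arrays), with no overlap and a change of -0.54 ± 0.136 (SE; adjusted p = 0.0894), and it passed in 4 of 18 alternatives. Of the 3 Sulf1 probe sets 2 had this sign, and over their mean the change was -0.33 (adjusted p = 0.113). Its relative Sulf2 had a change of -0.09 ± 0.0743 (adjusted p = 0.685). In the same mutant arrays the macrophage markers were higher by a median of 1.16.

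Of 16 genes that build chondroitin and dermatan sulfate, the other kind of chain that syndecans can carry, 1 fell and 0 rose, with 10 below 0 and a median of -0.11 (all genes: 1.31% fell, 52% below 0, median -0.01). The fall was Dsel, an epimerase that makes dermatan sulfate, which read 10.20, 10.38, 10.32 and 9.99 in controls and 9.67, 9.68, 9.20 and 9.55 in mutants. The groups did not overlap and the change was -0.70 ± 0.127 (SE; limma adjusted p = 0.0252). Dsel has a single probe set, so the choices of probe set left its values as they were. It passed in 14 of 18 alternatives and lost the call without control replicate 1, 2 or 3 or mutant replicate 4 (adjusted p up to 0.104).

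Other proteoglycans that can carry heparan sulfate gave 0 of 10 past the threshold by limma, with 2 at an unadjusted p under 0.05, 6 below 0 and a median of -0.09 (all genes: 13.5% at an unadjusted p under 0.05, 52% below 0, median -0.01). The members with the smallest p were Col18a1, a collagen of basement membranes, at 0.33 ± 0.0986 (SE; adjusted p = 0.152), and Nrp1, a receptor for semaphorins and VEGF, at -0.30 ± 0.11 (adjusted p = 0.262). Col18a1 passed in 3 of 18 alternatives, among them without mutant replicate 3 (0.39, adjusted p = 0.0473), and Nrp1 passed with array weights (adjusted p = 0.0446). Tgfbr3, or betaglycan, a proteoglycan that presents TGF-beta to its receptors, had a change of 0.04 ± 0.129 (adjusted p = 0.927).

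Of 12 genes that process, shed or release the core proteins, 1 fell and 0 rose, with 9 below 0 and a median of -0.08 (all genes: 1.31% fell, 52% below 0, median -0.01). Pcsk5, a proprotein convertase of the class that cuts glypicans and growth factor precursors, read 10.20, 10.64, 10.41 and 9.78 in controls and 9.42, 9.54, 9.10 and 9.31 in mutants. Control replicate 4 was the control nearest to the mutants, the groups did not overlap, and the change was -0.91 ± 0.173 (SE; limma adjusted p = 0.0307). All 5 of its probe sets read lower, but over their mean the change was -0.45 (adjusted p = 0.0826) and at the probe set of largest variance it was -0.85 (adjusted p = 0.0805). The call was also lost without control replicate 1, 2 or 3 or mutant replicate 1 or 4 (adjusted p up to 0.117), so that Pcsk5 passed in 11 of 18 alternatives. Notum, an enzyme that acts on glypican-bound WNT, had a change of 0.05 ± 0.0756 (adjusted p = 0.818).

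Among 12 proteins that bind the cytoplasmic tail of syndecans or act with it, 0 passed by limma, 1 had an unadjusted p under 0.05, 10 were below 0 and the median was -0.05, where 13.5% of all genes had such a p and 52% were below 0. Prkca, the protein kinase C that syndecan-4 activates, had a change of -0.31 ± 0.105 (SE; adjusted p = 0.22), and Actn1, an actin crosslinker of focal adhesions, one of -0.16 ± 0.0812 (adjusted p = 0.446). Sdcbp, or syntenin, which binds the tail of all syndecans, had a change of -0.04 ± 0.0628 (adjusted p = 0.829), with this sign at 1 of its 3 probe sets. Of the 3 Actn1 probe sets 2 read lower, and over their mean its change was -0.04.

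**Figure D3:**
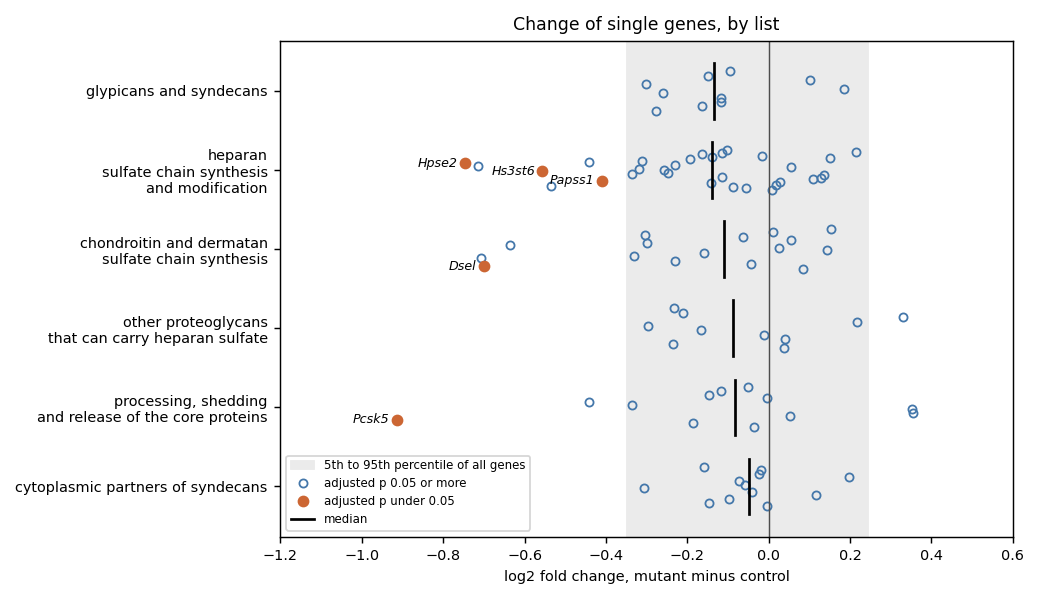
Change of each measured gene as log2 fold change, mutant minus control, for the 10 members and for 5 lists of genes that act on or with them; filled points have an adjusted p under 0.05, open points do not, bars are list medians, and the shaded band holds the values from the 5th to the 95th percentile of all genes (-0.35 to 0.24). The members lie inside the band, and the 5 named genes that fell lie to its left.

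The members were also compared across the alternatives. Of the 10 genes, 8 kept the sign of their change under every alternative that measured them, with all arrays or with any single array left out, and Sdc2 and Sdc3 each turned in 1. Some alternatives could not turn a sign. The replicate block, the variance trend and testing other sets of genes or probe sets leave the change itself as it is. For genes with a single probe set, so do the choices of probe set. The change of Gpc4 ran from -0.37 to -0.22, that of Gpc3 from 0.08 to 0.12 and that of Sdc1 from -0.16 to -0.10, and none of these 3 passed in any fit. Leaving out mutant replicate 3 moved Sdc4, Gpc1 and Sdc2 toward 0, Gpc1 from -0.10 to -0.03, and moved Gpc5 away from it. It also took Gpc4 to -0.25, Gpc2 to -0.11 and Gpc6 to -0.23, all nearer to 0. Sdc1 (-0.11), Sdc3 (-0.17) and Gpc3 (0.11) moved little. Leaving out control replicate 4 also took Gpc1 to -0.03, and it took Gpc2 from -0.15 to -0.08. After a second quantile normalization every member's change was nearer to 0, among them Gpc4 at -0.22, Sdc4 at -0.19, Sdc3 at -0.08, Sdc2 at -0.05 and Gpc1 at -0.03.

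**Figure D4:**
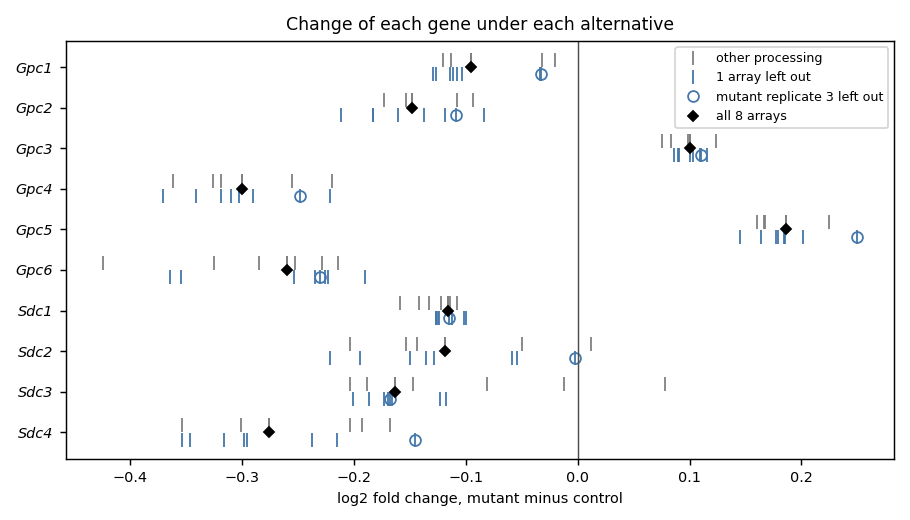
Change of each of the 10 genes as log2 fold change, mutant minus control, under each alternative; diamonds are all 8 arrays, grey ticks other ways of processing, blue ticks 1 array left out, with a ring where that array was mutant replicate 3. Ticks of Gpc3 and Gpc5 lie right of 0, those of Sdc2 and Sdc3 reach across 0 in 1 setting each, and those of the other 6 genes lie left of it.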

How the data were processed

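The values are log2 expression per probe set as deposited. The authors made them with RMA, per the submitters' processing notes, a method that subtracts background, quantile-normalizes the arrays and combines the probes of each set into 1 value. No RMA version was given. At low levels RMA tends to shrink differences. Per the labels, total RNA was labelled by the standard Affymetrix procedure. Of 45101 probe sets the platform annotation gave 1 symbol for 34958, several for 932 and none for 9211; the last 2 kinds were not named. All 24 member probe sets matched RefSeq (GRCm38.p6) by Entrez identifier. Each of 18194 genes was represented by its brightest probe set and tested with the moderated linear model of limma 3.58.1 under R 4.3.3 (lmFit, then eBayes), with the group as its single term. Benjamini-Hochberg adjustment ran across all genes, or across all probe sets where stated. A gene rose or fell when its adjusted p was under 0.05. Exact permutations covered the 70 relabelings, two-sided and unadjusted.

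The members and the lists were chosen with earlier results of these data known. Named were all members, up to 4 genes of each list past the threshold (otherwise the 2 with the smallest p), the 3 genes most correlated with the member of smallest p, Tgfbr1, Xist, and genes chosen by role after their values were seen. Xylt1, Ndst1 and Hs3st5 were not analysed here. Further marker lists gave 0 of 9 endothelial, 0 of 6 erythroid and 0 of 9 muscle precursor genes past the threshold (medians 0.01, -0.21 and 0.07), beside 2.14% of all genes. The fit was tested on simulated arrays. Alternatives were the replicate number as a block, other choices of probe set, leaving out dim genes, a second normalization, different variance models, the Xist level as a covariate and leaving out each array.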

Additional observations from a re-analysis of the deposited data

Results flagged for a closer look

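In 98 groups of 4 arrays, 6 held an array whose gap to the nearest of the others exceeded 0.829 of the group's range, and chance gives about 1 in 20. Control replicate 4 read 10.61 for Gpc6 (1428774_at), where the other controls read 10.97 to 11.01. Mutant replicate 3 read 10.82 for Sdc1 (1415943_at), against 11.07 to 11.12 in the other mutants, 10.82 for Hs2st1, against 11.03 to 11.06, and 10.77 for Hs6st2, against 11.10 to 11.15. Control replicate 2 read 8.07 for Sdc2 (1417012_at), against 8.26 to 8.28. The same control read 6.62 for Xist, against 11.67 to 11.94 in the other controls. Low and high Xist arrays stood in both groups, with mutant replicates 1 and 2 at 6.21, so this low reading was not alone.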

How the results depend on the processing

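Over 618 comparisons of a named gene's change with an alternative, 553 kept both direction and side of the threshold, 18 turned in direction, 34 lost a call and 13 gained one. Several alternatives leave the change itself as it is, so in part of the 553 the direction could not turn. The cause of the turns and of the lost or gained calls was not tested. The 13 include Gpc3 (0.10) and Sdc1 (-0.12), which reached p = 0.0286 by the exact permutation. That p is unadjusted, so these genes gained no call at the adjusted threshold. Gpc5 passed with array weights (0.23) and without mutant replicate 3 (0.25), its range without single arrays being 0.15 to 0.25, so the number of members past the threshold was 1 in those settings and 0 to 1 without single arrays. Sdc2 turned to 0.012 with array weights. With the probe set of largest variance Sdc3 was at 0.078, Ext2 at 0.16, Glce at 0.34, Hs2st1 at 0.16, Sulf2 at 0.14, Sdcbp at 0.073 and Tug1 at 0.014; over the mean of probe sets Ext2 was at 0.051, Glce at 0.039 and Sdcbp at 0.057. Ext2 was at 0.064 after quantile normalization and ran from -0.074 to 0.020 without single arrays. Tgfbr3 was at -0.016 with Xist as a covariate and ran from -0.058 to 0.11 without single arrays.

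The number of genes past the threshold, 390 (152 higher, 238 lower), was 620 after quantile normalization (279 higher), 1356 with array weights (629 and 727), 369 lower with a variance trend, 404 lower with Xist as a covariate and 92 higher among genes above the median level. Without single arrays it ran from 104 to 618, with 60 to 328 higher and 40 to 357 lower. Of the 4 same-numbered pairs, number 4 deviated together (correlation 0.406, the highest of all pairs) and the other three did not (-0.124 to 0.0327), with control replicate 1 closest to mutant replicate 2 (0.277). The numbers were not taken as pairs, since not every correlation exceeded 0.1. With the replicate number as a block 293 genes and 0 members passed, Gpc4 had an adjusted p of 0.322, and Hpse2 (0.0512) and Papss1 (0.1) did not pass. With 4 arrays a group, changes of the size seen in the members are hard to call, and a p that misses the threshold does not show that a gene was unchanged.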
